A study of Mus musculus with 6 samples.

Results

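The Wnt pathway genes described here are 50 listed genes, 12 Wnt ligands, 3 R-spondins, 14 receptors and co-receptors, 11 secreted inhibitors, 6 intracellular inhibitors or feedback targets, and β-catenin with 3 TCF/LEF transcription factors. They were taken by name, and 49 of them were measured among 18193 genes on the array. Tcf7, a TCF/LEF factor, had no probe set annotated to it alone. A probe set is the group of short probes that reads 1 transcript, and each gene was read by the probe set with the highest mean deposited signal over the 6 arrays. The cells were MC3T3-E1 subclone 4, a clonal mouse calvarial pre-osteoblast line, grown in α-MEM with serum. Control cultures were left untreated for 5 days, and AA cultures received ascorbic acid, 50 µg by the labels and per ml by the study's methods, for 5 days. There were 3 arrays per group, and the labels name no allele or transgene. The labels do not say whether the 3 replicates were separate experiments or wells of 1 plate, so p-values here measure only how these samples spread, which may be technical. Whole cultures were measured, so fewer cells expressing a gene and less RNA per cell cannot be told apart.

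Wnt ligands are secreted lipid-modified proteins that bind Frizzled receptors. With the co-receptors Lrp5 or Lrp6 they stabilize β-catenin, which enters the nucleus and activates genes together with TCF/LEF factors, while Ror2, Ryk and some Frizzled pairings signal without β-catenin. Secreted proteins such as Wif1, the Sfrp and Dickkopf families, sclerostin and Notum restrain the ligands or the co-receptors, R-spondins raise the number of receptors at the surface, and Axin2, Nkd1, Nkd2, Notum and Lef1 are widely used as feedback targets. In bone the β-catenin branch is known to promote osteoblast commitment and bone formation.

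The deposited values were linear MAS5 signals, and the median over all tested probe sets of the mean signal was 16, which is used below to say which genes were dim. Log2 ratios (log2 fold changes) are AA over control, with their standard errors (SE), from limma on quantile-normalized log2 signals and a term for each replicate number, and a gene passed at an adjusted p under 0.05 over all 45037 probe sets. The 3′ to 5′ ratio of the Gapdh control probe sets, a sign of RNA integrity, was 0.791 to 0.809 on 5 arrays and 0.9205 on the array of control replicate 3. The osteoblast markers measured, 4 of 7 listed (Runx2, Bglap and Spp1 had no probe set of their own), were above the median signal, with Alpl and Ibsp higher in AA (log2 ratio 1.52 and 1.53). Sp7 and Col1a1 did not pass by their brightest probe sets (log2 ratio 0.29 and 0.11, adjusted p = 0.235 and 0.417 from limma). In contrast 4 of 5 adipocyte, 4 of 5 skeletal muscle and all 5 endothelial markers measured lay below the median signal in the mean over arrays. Of the 6 osteocyte markers Sost, Mepe and Fgf23 were below it and Dmp1, Phex and Pdpn above, and none passed. Dmp1 had signals of 73.8 on AA replicate 1, 10.4 and 9.48 on the other AA arrays and 5.14 to 8.26 in control, and Phex was also highest on AA replicate 1, at 39.8 against 4.17 to 20.6 elsewhere. Of the macrophage markers Ptprc, Cd68 and Adgre1 were below it, and the summed list was 93.3 to 120 in control and 171 to 214 in AA cultures. Csf1r rose from a mean signal of 24.5 in control to 87.4 in AA cultures (log2 ratio 1.81). Cd14 was higher on every AA array, with means of 62.2 and 83.3, but did not pass (log2 ratio 0.42, adjusted p = 0.238 from limma). The summed chondrocyte list was 325 to 392 in control and 427 to 527 in AA cultures. In it Col2a1 rose (log2 ratio 1.18), while Sox9 was lower on every AA array (mean 169 against 220.4, log2 ratio -0.33, adjusted p = 0.283 from limma), and Acan, Col10a1 and Matn1 were below the median signal and did not pass. The part of these in the results below was not tested.

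AA cultures differed from control in genes of every role, with rises and falls in each but the R-spondins. Of the ligands 3 rose and 1 fell, of the receptors 1 rose and 2 fell, of the secreted inhibitors 2 rose and 2 fell, of the intracellular inhibitors and feedback targets 1 rose and 1 fell, of the nuclear factors 1 rose and 1 fell, and of the R-spondins 1 fell. Of the 49 genes, 8 were higher (Notum, Nkd2, Wif1, Wnt11, Lef1, Wnt10a, Wnt6 and Ror2), 8 were lower (Dact2, Rspo2, Sfrp2, Tcf7l2, Wnt4, Ryk, Dkk3 and Fzd7), and 33 did not pass. That is 16.3% in each direction and 32.7% in either, where 4.07% of all 18193 genes were higher, 3.85% lower and 7.92% in either direction. The list was chosen with earlier results of these data known, so these shares describe it and do not test it. Of the 37 genes with a mean signal above 16, 8 were higher (21.6%) and 7 lower (18.9%), or 40.5% in all, where 6.75% of the 10837 genes as bright were higher and 6.35% lower, or 13.1% in all. Of the 12 dimmer ones 1 passed (8.33%), which was Dact2. Of all 18193 genes 1440 passed, and 1419 of these were among the 10837 brighter ones. The median log2 ratio over the 49 was -0.31, and -0.02 over all genes. The 3 AA arrays lay wholly above the 3 control arrays for 14 of the 49 genes in the normalized values and wholly below for 17, or 28.6% and 34.7%, where all genes gave 13% and 15.1%. Wnt6, Wnt10a, Wif1, Notum, Nkd2 and Sfrp2 passed under 15 of the 16 limma alternatives run, all but a variance prior that ignores the signal, under which no probe set of any gene passed. In the methods' paired t-test Wnt6, Notum and Nkd2 were under its threshold of 0.01 (unadjusted p = 0.00168, 0.00187 and 0.00763). Sfrp2, Wif1 and Wnt10a were not (0.011, 0.0153 and 0.0182). None of these genes passed that t-test after Benjamini-Hochberg adjustment (adjusted p = 0.261 to 0.341). The count of higher genes ran from 5 to 9 when a replicate number or an array was left out, with 5 without AA replicate 2 and no block. The count of lower genes depended far more on single arrays: it was 2 without replicate 2, 3 without replicate 3, 3 with 50 added to every signal, and 1 to 3 with no block when any array other than control replicate 1 was left out (6 without that one).

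**Figure D1:**
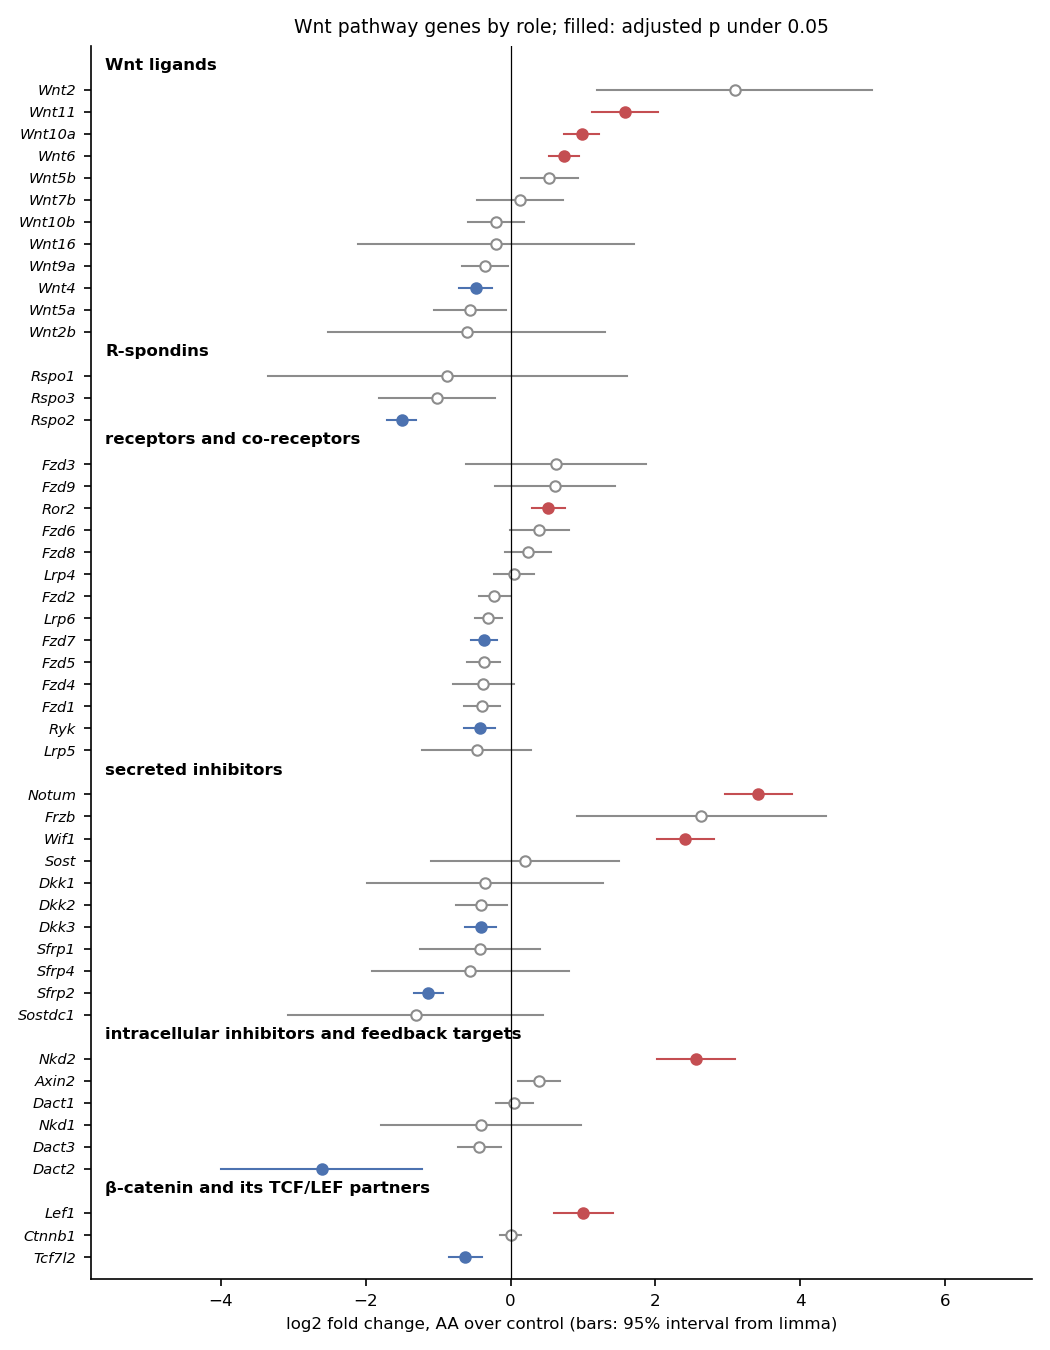
Log2 ratio, AA over control, of the 49 measured Wnt pathway genes, grouped by role, with bars for the 95% interval from limma. Filled points passed an adjusted p of 0.05, red higher and blue lower, and Notum (3.42) and Dact2 (-2.61) are the outermost of these.

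**Figure D2:**
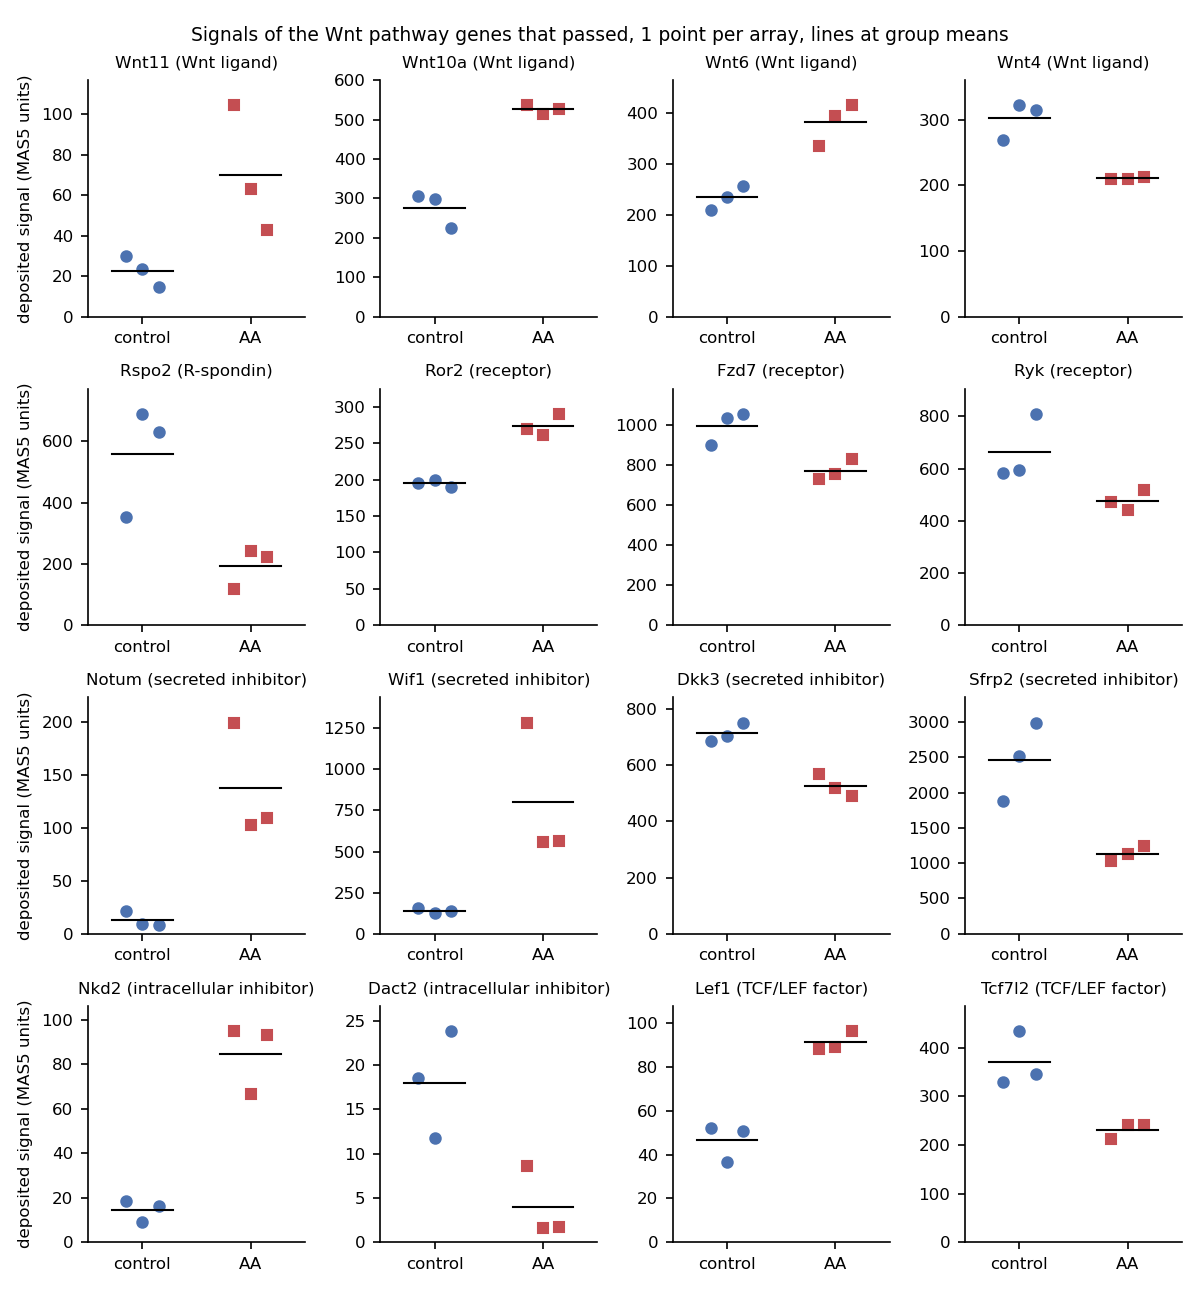
Deposited MAS5 signal of each of the 16 genes that passed, on linear axes from 0, with circles for the 3 control arrays, squares for the 3 AA arrays and lines at the group means. In every panel the groups do not overlap.

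RefSeq's table of promoters, on build GRCm38.p6, held 42 start sites for 33 of the 50 listed genes. The bases before each start were searched on both strands for the letters bound by TCF/LEF factors, CTTTG followed by AA, AT, TA or TT, in a window of 250 bases. A match was found at 6 of the 42 starts (14.3%) and at 4874 of all 32851 starts (14.8%). Any link between a match and a change in signal was not tested. Of the 17 starts of genes that passed, 4 held a match (23.5%), and these 4 are shown. They are written 5′ to 3′ on the gene's strand with the match in capitals, and such a match is a description of the letters, not a site of binding. Wnt11 is shown at 1 of its 2 listed starts (chr7:98834862-98835111, plus strand), with the reverse complement of CTTTGAT 51 bases before the start. Fzd7 is at chr1:59481897-59482146, plus strand, and its match is the reverse complement of CTTTGTT, 130 bases before the start. Lef1 is shown at 1 of its 4 listed starts (chr3:131156044-131156293, plus strand), and its match is the reverse complement of CTTTGTA, 147 bases before the start. Tcf7l2 is shown at 1 of its 2 listed starts (chr19:55895071-55895320, plus strand), with CTTTGTT 14 bases before the start.
Wnt11: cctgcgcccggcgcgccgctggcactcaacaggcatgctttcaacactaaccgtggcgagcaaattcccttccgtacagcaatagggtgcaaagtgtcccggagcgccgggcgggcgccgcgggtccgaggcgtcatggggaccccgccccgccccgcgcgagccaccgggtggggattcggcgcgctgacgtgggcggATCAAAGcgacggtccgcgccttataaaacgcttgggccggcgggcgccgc
Fzd7: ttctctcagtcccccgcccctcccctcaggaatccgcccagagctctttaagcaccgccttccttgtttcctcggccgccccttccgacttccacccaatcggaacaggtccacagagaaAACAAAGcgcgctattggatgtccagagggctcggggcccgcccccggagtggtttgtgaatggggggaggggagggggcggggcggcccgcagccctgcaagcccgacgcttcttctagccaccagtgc
Lef1: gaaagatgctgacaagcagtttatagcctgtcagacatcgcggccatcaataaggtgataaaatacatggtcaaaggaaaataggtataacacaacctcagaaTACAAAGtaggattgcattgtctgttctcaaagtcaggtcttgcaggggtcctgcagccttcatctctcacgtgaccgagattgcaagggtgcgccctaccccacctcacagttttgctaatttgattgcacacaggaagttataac
Tcf7l2: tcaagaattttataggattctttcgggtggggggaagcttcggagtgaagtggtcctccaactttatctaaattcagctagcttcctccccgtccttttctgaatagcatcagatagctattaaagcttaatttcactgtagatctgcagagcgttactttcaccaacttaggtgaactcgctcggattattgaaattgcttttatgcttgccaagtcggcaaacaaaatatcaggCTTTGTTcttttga

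Among the 12 ligands, Wnt6, Wnt10a and Wnt11 rose, Wnt4 fell and 8 did not pass. Wnt10a, a ligand of the β-catenin branch, had signals of 305, 298 and 224 in control and 536, 515 and 526 in AA cultures. Every AA array was above every control array, and the lowest of the 6 was control replicate 3 (log2 ratio 0.98, SE 0.11, adjusted p = 0.0022 from limma). Wnt6 had signals of 211, 235 and 258 in control and 335, 396 and 416 in AA cultures. Here too the groups did not overlap, and the difference within the 3 replicate numbers was 0.71, 0.80 and 0.70 on the log2 scale (log2 ratio 0.74, SE 0.09, adjusted p = 0.0035 from limma). A further Wnt6 probe set rose as well, by 0.79 on the log2 scale (adjusted p = 0.0177). In RefSeq's gene table for GRCm38.p6 Wnt6 and Wnt10a are neighbours with no protein-coding gene between them. Of the 4 neighbouring pairs on the lists used here with at least 1 of the 50 genes, this was the only pair in which both passed, the others being Wnt3a with Wnt9a, Wnt10b with Wnt1, and Dact1 with Daam1.

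Wnt11, a ligand mostly known for signalling without β-catenin, had signals of 30.2, 23.3 and 14.7 in control and 105, 63.1 and 43 in AA cultures. The control signals were close to the median of all probe sets, and on both sides replicate 1 was highest and replicate 3 lowest (log2 ratio 1.58, SE 0.20, adjusted p = 0.00407 from limma). With 50 added to every signal its log2 ratio was 0.70, and with no replicate block the adjusted p was 0.0382. With no block it did not pass without control replicate 2 or 3 or without AA replicate 1 or 2 (adjusted p = 0.12, 0.106, 0.122 and 0.125). Wnt4 moved the other way, with signals of 269, 322 and 315 in control and 209.6, 209 and 213 in AA cultures. The AA arrays were close together and all below the control arrays (log2 ratio -0.48, SE 0.10, adjusted p = 0.033 from limma). The call was lost without replicate 2 (adjusted p = 0.214), without replicate 3 (0.0718) and with 50 added (0.0657), and with no block when any array other than control replicate 1 was left out (0.0691 to 0.112). The further Wnt4 probe set, with means of 92.9 in control and 63.6 in AA cultures, did not overlap and did not pass (log2 ratio -0.52, adjusted p = 0.165 from limma).

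Of the 8 ligands that did not pass, Wnt5a, the main ligand of Ror2, had a log2 ratio of -0.56 (95% interval -1.06 to -0.07, adjusted p = 0.213 from limma). Its control signals of 54.1, 49.8 and 30.5 overlapped AA signals of 30.4, 32.5 and 25.9. Wnt5b had a brightest probe set whose signals of 99.3, 58.2 and 72.5 in control lay below 106, 101 and 111 in AA (log2 ratio 0.54, adjusted p = 0.138). Its other probe set, with signals of 45.9, 37.8 and 34.9 in control and 81.8, 59.9 and 66.5 in AA cultures, rose (log2 ratio 0.81, adjusted p = 0.0304), and by a rule that counts any probe set 9 of the 49 genes were higher and 8 lower, where 4.75% and 4.59% of all genes were. Wnt10b, which is known to favour bone over fat, had a log2 ratio of -0.20 (95% interval -0.59 to 0.19), so a doubling lay outside the interval. Wnt9a and Wnt7b had log2 ratios of -0.36 and 0.13. Wnt2, Wnt2b and Wnt16 had signals of at most 8.35, all below the median. Wnt2 had signals of 0.893, 0.509 and 0.189 in control and 8.35, 5.05 and 1.36 in AA cultures, wholly apart but dim (log2 ratio 3.09, 95% interval 1.20 to 4.99, adjusted p = 0.0769 from limma). In the limma fit that averages the probe sets of each gene its adjusted p was 0.04998. Wnt2 has only 1 probe set, so that value rests on the same signals.

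Rspo2, a secreted partner of Wnt signalling that binds Lgr receptors and keeps Frizzled receptors at the surface, fell. It had signals of 353, 689.6 and 630.3 in control and 118, 243 and 222 in AA cultures. Replicate 1 was lowest on both sides, and the difference within the 3 replicate numbers was -1.54, -1.48 and -1.51 on the log2 scale, which is close to 1 value in all 3 (2.84-fold lower in AA, log2 ratio -1.51, SE 0.09, adjusted p = 0.000211 from limma). With no replicate block the adjusted p was 0.0236. With no block it was 0.102 without control replicate 2, 0.0811 without control replicate 3, 0.0632 without AA replicate 1 and 0.0519 without AA replicate 3. Its further probe set was dim, with a mean of 9.35 in control, and had a log2 ratio of 0.54. The mean of both probe sets gave -0.48 (adjusted p = 0.135). Rspo3 had signals of 12.6, 20.8 and 31.2 in control and 6.38, 13.3 and 13 in AA cultures, which overlapped (log2 ratio -1.02, adjusted p = 0.163), and Rspo1 was below the median signal on every array.

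**Figure D3:**
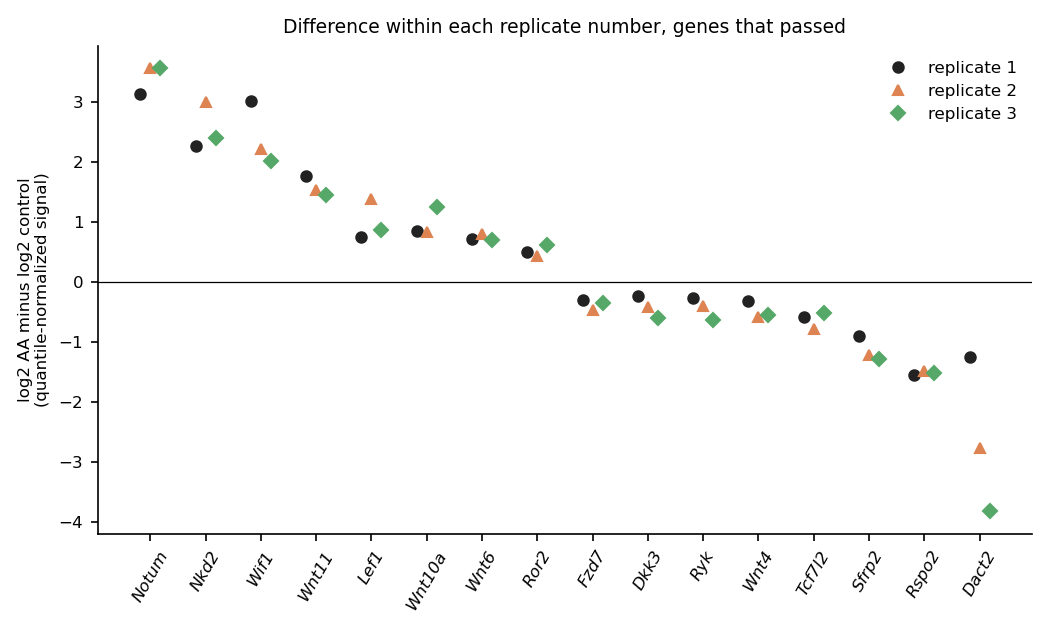
Difference of log2 quantile-normalized signal, AA minus control, within each replicate number for the 16 genes that passed, ordered by log2 ratio. All 3 points of each gene lie on 1 side of 0, those of Rspo2 between -1.54 and -1.48 and those of Dact2 between -3.82 and -1.25.

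Among the 14 receptors and co-receptors 1 rose and 2 fell, with a median log2 ratio of -0.27. Ror2, a receptor tyrosine kinase for Wnt5a, had signals of 196, 199.9 and 189.6 in control and 270.4, 261 and 291 in AA cultures. The groups were far apart compared with the spread of the control arrays (log2 ratio 0.52, SE 0.10, adjusted p = 0.0217 from limma). The call was lost without replicate 2 (adjusted p = 0.103) or 3 (0.0513), after median centring (0.0652), and with no block without control replicate 2 (0.051) or AA replicate 2 or 3 (0.0579 and 0.058). A further Ror2 probe set, with means of 33.9 in control and 36.1 in AA cultures, overlapped (log2 ratio 0.20, adjusted p = 0.7995 from limma). Fzd7, a Frizzled receptor, had signals of 897, 1034 and 1053 in control and 727, 752 and 827 in AA cultures, and Ryk, a receptor with an inactive kinase domain, had signals of 581, 596 and 809 in control and 471, 442 and 517 in AA cultures. In both the AA arrays were all lower, and control replicate 3 was the highest array (log2 ratio -0.37 and -0.43, SE 0.08 and 0.09, adjusted p = 0.0319 and 0.0402 from limma). Neither passed with no replicate block (adjusted p = 0.0507 and 0.105) or with 50 added (0.0539 and 0.079), and Fzd7 did not pass after median centring (0.0628). With the block, Fzd7 did not pass without replicate 1, 2 or 3 (adjusted p = 0.0535, 0.221 and 0.0502), nor Ryk without replicate 2 or 3 (0.155 and 0.11). A further Ryk probe set, with signals of 668, 558 and 509 in control and 535, 547 and 460 in AA cultures, had a log2 ratio of -0.13 (adjusted p = 0.506). The further Fzd7 probe set was dim on every array (mean signals of 2.97 in control and 9.28 in AA cultures) and had a log2 ratio of 1.65, so the mean of both probe sets had the opposite sign (0.64, adjusted p = 0.141).

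No other Frizzled gene passed. Fzd1, Fzd2, Fzd4 and Fzd5 had log2 ratios of -0.40, -0.23, -0.38 and -0.37, with adjusted p of 0.0798, 0.242, 0.331 and 0.0786 from limma. A further Fzd4 probe set had signals of 31.9, 27.9 and 26.3 in control and 11.6, 8.44 and 15.3 in AA cultures, which did not overlap (log2 ratio -1.36, adjusted p = 0.0512). A further Fzd2 probe set did not overlap either (log2 ratio -0.37, adjusted p = 0.0567). Fzd1 had signals of 298, 329.9 and 391 in control and 258, 229 and 266 in AA cultures, and passed after median centring (adjusted p = 0.0412) and without replicate 1 (0.0372). Fzd5 had signals of 519.9, 539 and 579.8 in control and 448, 409 and 381 in AA cultures, and passed without replicate 1 (0.0436). Fzd6, Fzd8 and Fzd9 had positive ones, 0.40, 0.24 and 0.61 (adjusted p = 0.288, 0.416 and 0.438), and Fzd3 was below the median signal on all 6 of its probe sets. The β-catenin co-receptor Lrp6 had signals of 629.6, 657 and 659 in control and 517, 498 and 529.9 in AA cultures. Its groups did not overlap, and it passed only with no replicate block (log2 ratio -0.31, adjusted p = 0.0707, and 0.0468 with no block). Lrp5 had a mean of 20.2 in control and 14.9 in AA cultures and a 95% interval of -1.22 to 0.28 on the log2 scale. Lrp4, which binds sclerostin, had a log2 ratio of 0.05 (95% interval -0.22 to 0.32), with its lowest signal, 463, on control replicate 3, the array with the highest Gapdh ratio.

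The secreted inhibitors held the largest rise and, by fold, the second largest fall among genes above the median signal. Notum, an enzyme that strips the lipid from Wnt ligands, rose 10.7-fold. It had signals of 21.9, 9.66 and 8.56 in control and 199, 103 and 109.7 in AA cultures. Control signals straddled the median of all probe sets, with replicate 1 highest on both sides (log2 ratio 3.42, SE 0.20, adjusted p = 0.000219 from limma). With 50 added to every signal the log2 ratio was 1.54 (adjusted p = 0.00569). Wif1, which binds Wnt ligands outside the cell, rose 5.33-fold, with signals of 159, 126 and 138 in control and 1284, 559.7 and 562 in AA cultures. AA replicate 1 was well above the other AA arrays, which still lay more than 3 times above every control array (log2 ratio 2.41, SE 0.17, adjusted p = 0.000463 from limma). AA replicate 1, highest for both Notum and Wif1, was also the array highest for Dmp1 and Phex. Without it, and with no block, the log2 ratio was 2.03 for Wif1 and 3.11 for Notum (adjusted p = 0.00141 and 0.015).

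Sfrp2, a secreted protein with a Frizzled-like domain, fell 2.2-fold. It had signals of 1877, 2522 and 2992 in control and 1027, 1134 and 1238 in AA cultures. The highest AA array was below the lowest control array, and the control arrays were spread more widely than the AA arrays (log2 ratio -1.14, SE 0.09, adjusted p = 0.000614 from limma). Dkk3, a divergent Dickkopf protein, had signals of 685, 704 and 752 in control and 570.5, 519.6 and 492 in AA cultures. Both of its probe sets fell, with log2 ratios of -0.41 and -0.41 (SE 0.09 for the brighter, adjusted p = 0.042 and 0.0241 from limma). The brighter was not called without replicate 2 (adjusted p = 0.182) or 3 (0.112), with 50 added (0.0784), or with no block without control replicate 2 or 3 (0.0854 and 0.0738) or AA replicate 2 or 3 (0.12 and 0.0967). Dkk2 had a log2 ratio of -0.40 (adjusted p = 0.206) and Sfrp1 one of -0.42 with a 95% interval of -1.25 to 0.40. The further Sfrp1 probe sets were below the median signal and had the opposite sign, with log2 ratios of 0.25, 1.33, 0.42 and 0.96 (adjusted p = 0.89, 0.403, 0.858 and 0.7595 from limma). The remaining secreted inhibitors, Sfrp4, Frzb, Dkk1, Sost and Sostdc1, had mean signals below the median. Frzb had signals of 0.991, 3.15 and 1.27 in control and 15.5, 5.59 and 12.5 in AA cultures, wholly apart but dim (log2 ratio 2.64, 95% interval 0.92 to 4.36, adjusted p = 0.0949 from limma). The further Frzb probe set, also dim, went the other way. It had signals of 3.4, 2.74 and 3.49 in control and 3.4, 0.178 and 0.216 in AA cultures (log2 ratio -2.70, adjusted p = 0.215 from limma). Sost, which encodes sclerostin, the osteocyte inhibitor of Lrp5 and Lrp6, had signals of 5.29, 6.24 and 5.84 in control and 12.5, 6.93 and 3.78 in AA cultures, which overlapped.

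**Figure D4:**
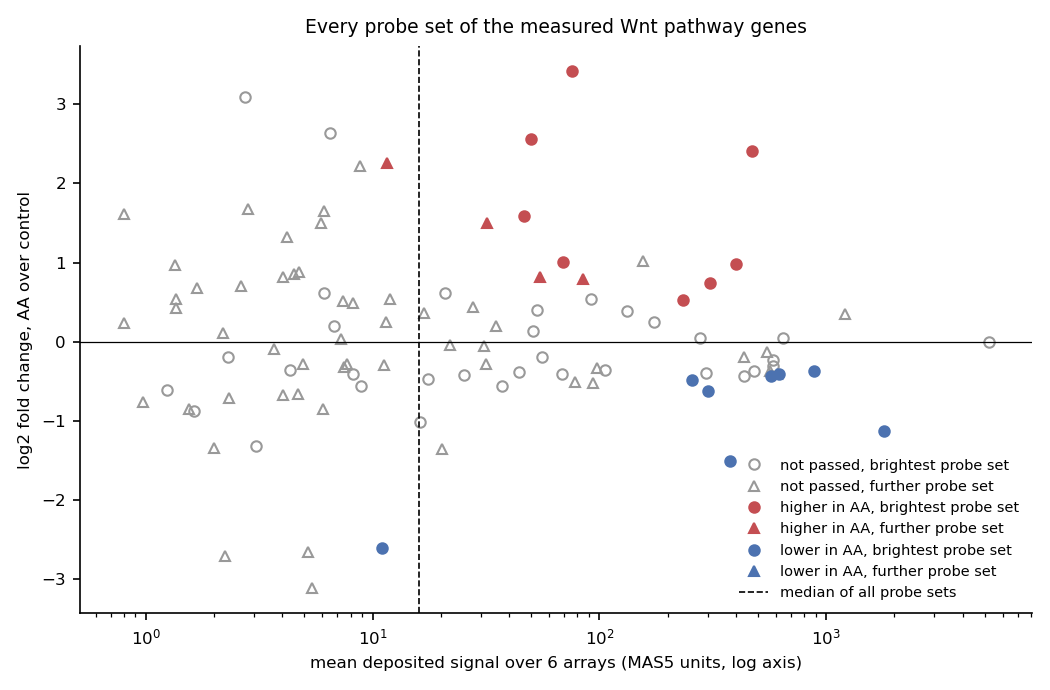
Log2 ratio, AA over control, against the mean deposited signal over 6 arrays (log axis) for all 105 probe sets of the 49 genes. Circles are the brightest probe set of a gene and triangles further ones, filled where the adjusted p was under 0.05, and the dashed line is the median signal of 16. The filled points lie to its right, apart from those of Dact2 and of a further Nkd2 probe set.

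Of the 6 intracellular inhibitors and feedback targets, Nkd2 rose and Dact2 fell, and both encode proteins that bind Dishevelled, which relays the signal from Frizzled. Nkd2 had signals of 18.6, 9.1 and 16.4 in control and 94.9, 66.7 and 93 in AA cultures. The lowest AA array was more than 3 times the highest control array (log2 ratio 2.56, SE 0.23, adjusted p = 0.000982 from limma). Further Nkd2 probe sets rose, from means of 16.6 and 4.61 in control to 47.4 and 18.6 in AA cultures (adjusted p = 0.0101 and 0.0398), and the remaining one had a log2 ratio of 0.36 (adjusted p = 0.683). With 50 added, the brightest had 1.04 (adjusted p = 0.00638), and the mean of the 4 probe sets gave 1.67 (adjusted p = 0.016). Dact2 had signals of 18.5, 11.8 and 23.8 in control and 8.6, 1.64 and 1.69 in AA cultures. All AA arrays were lower, from control signals on either side of the median of all probe sets (log2 ratio -2.61, SE 0.60, adjusted p = 0.0477 from limma). With 50 added its log2 ratio was -0.34 (adjusted p = 0.0687), with no replicate block its adjusted p was 0.0696, and without replicate 2 or 3 it was 0.14 or 0.147. The further Dact2 probe sets were below the median signal, overlapped, and had log2 ratios of 0.10 and 0.68 (adjusted p = 0.973 and 0.736 from limma).

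Axin2, a scaffold of the complex that degrades β-catenin and a target of the pathway in most tissues, had signals of 104, 120.0 and 121 in control and 158, 135 and 152 in AA cultures. The groups did not overlap, but the difference did not pass (log2 ratio 0.39, 95% interval 0.10 to 0.69, adjusted p = 0.143 from limma), so a doubling lay outside its interval. The further Axin2 probe set was dim, with means of 5.625 in control and 3.73 in AA cultures, and had the opposite sign (log2 ratio -0.66, adjusted p = 0.641 from limma). Nkd1 was below the median signal on all 4 of its probe sets (log2 ratio -0.41, 95% interval -1.78 to 0.97). Dact1 had a log2 ratio of 0.05 (95% interval -0.20 to 0.30) and Dact3 one of -0.43 (adjusted p = 0.107), with Dact3 highest on control replicate 3, at 659 against 336 to 463 elsewhere.

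Of the 2 TCF/LEF factors measured, Lef1 rose and Tcf7l2 fell. Lef1, which binds DNA with β-catenin, had signals of 52.3, 36.7 and 50.8 in control and 88.2, 88.8 and 96.1 in AA cultures. Its signal doubled without overlap (log2 ratio 1.00, SE 0.18, adjusted p = 0.0171 from limma). The call was lost without replicate 2 (adjusted p = 0.116) and, with no block, without AA replicate 1, 2 or 3 (0.0676, 0.0855 and 0.0738), and with 50 added the log2 ratio was 0.56 (adjusted p = 0.0431). The further Lef1 probe set was dim, with signals of 4.22, 9.61 and 0.382 in control and 12.8, 7.84 and 18 in AA cultures. These overlapped (log2 ratio 2.22, adjusted p = 0.286 from limma). Tcf7l2, a factor of the same family, had signals of 329, 434 and 347 in control and 212, 242 and 242 in AA cultures. It was lower on every AA array (log2 ratio -0.63, SE 0.10, adjusted p = 0.0104 from limma). Without replicate 2 the adjusted p was 0.0953, and with no block it was 0.0621 without control replicate 2 and 0.056 to 0.0732 without any 1 of the AA arrays. Its 3 further probe sets had log2 ratios of -0.52, -0.05 and -3.11 (adjusted p = 0.18, 0.963 and 0.0873). Ctnnb1, which encodes β-catenin, had signals of 5436, 4868 and 4771 in control and 5775, 5576 and 4849 in AA cultures. The groups overlapped, and the log2 ratio was -0.0014 with a 95% interval of -0.15 to 0.15. Its further probe sets had log2 ratios of 0.36 and 1.02 (adjusted p = 0.125 and 0.11), and were lowest on control replicate 3, at 762 and 36.5 against at least 1102 and 132 elsewhere. The part of RNA integrity on that array in these values was not tested.

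**Figure D5:**
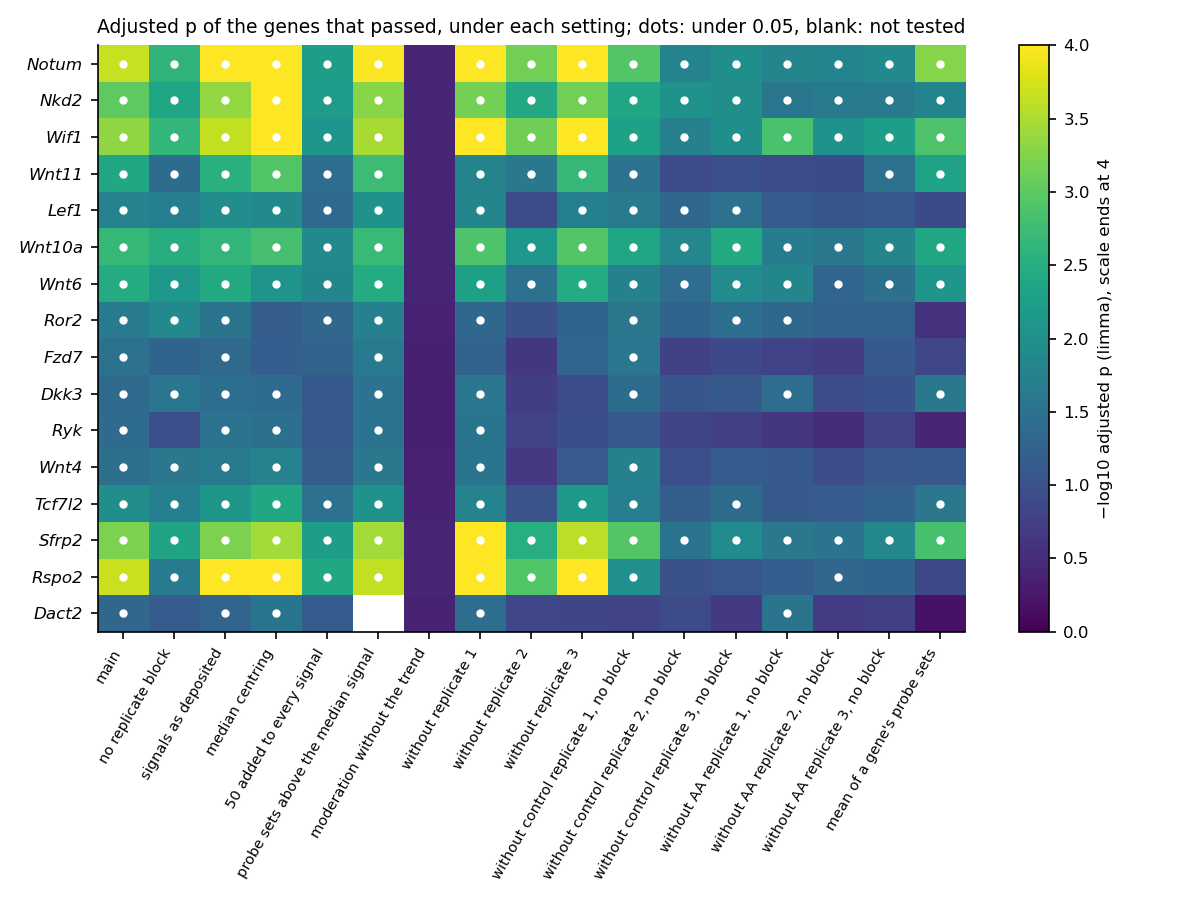
Adjusted p from limma, as −log10 and ending the scale at 4, of the 16 genes that passed (rows) under the reported fit and each limma alternative (columns), with white dots where it was under 0.05 and a blank where the gene was not tested. The methods' t-test is not shown. The rows of Notum, Nkd2, Wif1, Wnt10a, Wnt6 and Sfrp2 hold a dot in every column but that of moderation without the trend, and the row of Fzd7 in few.

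Of the 33 genes that did not pass, 22 had a mean signal above the median, and for 17 of these the 95% interval lay within 1 log2 unit of 0 on either side, so a doubling or halving was outside it. For the 11 dimmer ones no interval was that narrow. A total of 28 genes passed in neither the reported fit nor any alternative, and 15 of these changed the sign of their mean difference under at least 1 of them. The 5 that passed only under an alternative were Wnt2, Wnt5b, Fzd1, Fzd5 and Lrp6.

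The rest of the pathway was read from a list of 104 further genes, of which 103 were measured and Kremen2 had no probe set of its own. Of these, 10 were higher and 13 lower, or 9.71% and 12.6%, beside 4.07% and 3.85% of all genes. By the rule that counts any probe set 12 were higher and 16 lower, where 4.75% and 4.59% of all genes were. This list too was chosen with earlier results of these data known, so its shares only describe it. Of the receptors and the R-spondin route, Ptk7, a co-receptor with an inactive kinase domain, and Rnf43, a ubiquitin ligase that removes Frizzled receptors, had log2 ratios of 0.71 and 0.85 (adjusted p = 0.00331 and 0.0152 from limma, and 0.0985 for Rnf43 with no replicate block). Lgr4, a receptor for R-spondins, and the glypican Gpc4 had -0.64 and -0.86 (adjusted p = 0.0152 and 0.000637). Wls, the carrier that takes Wnt ligands to the cell surface, had -0.41 (adjusted p = 0.0215). Of further inhibitors and their receptors, Apcdd1, a membrane inhibitor, and Kremen1, a receptor for Dickkopf proteins, had 1.23 and 0.73 (adjusted p = 0.00372 and 0.0103). Igfbp4 had -0.40 (adjusted p = 0.0117), but 0.104 on the signals as deposited and 0.262 after median centring.

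Among 21 genes of Dishevelled and the destruction complex none rose and 2 fell, the kinase gene Gsk3b and the tankyrase gene Tnks (log2 ratio -0.34 and -0.41, adjusted p = 0.0361 and 0.0347 from limma). Of these genes 17 were above the median signal, so the count of 2 is near the 7.92% of all genes, and 13.1% of genes as bright, that passed. Neither passed with 50 added (adjusted p = 0.0552 and 0.0604), and Gsk3b not on the signals as deposited (0.051). Of 5 Groucho-type corepressors, Tle1 rose with 0.85 and Tle2 fell with -0.98 (adjusted p = 0.00614 and 0.00987), Tle3, Tle4 and Tle6 did not pass (0.19, 0.15 and -0.16), and the cofactor Tbl1x had -0.59 (adjusted p = 0.0127). Of 19 genes of the planar cell polarity and calcium branch, 16 of them above the median signal, 2 rose and 1 fell, beside the same 7.92% and 13.1%. Prickle1, Nfatc1 and the formin gene Daam1 had log2 ratios of 0.44, 0.39 and -0.94 (adjusted p = 0.0389, 0.043 and 0.0123 from limma). Neither Prickle1 nor Nfatc1 passed on the signals as deposited (0.0561 and 0.0639). Prickle1 had signals of 409, 319 and 235 in control and 483, 420 and 351 in AA cultures, which overlapped.

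Of 17 further genes listed as β-catenin targets, 3 rose, 4 fell and 10 did not pass. Of the 17, 14 were above the median signal, and 7.92% of all genes, and 13.1% of genes above that median, passed in either direction. Tnfrsf11b, which encodes the decoy receptor osteoprotegerin, went from a mean signal of 283 to 829 and Bambi, a decoy receptor of the TGF-β family, from 105 to 279 (log2 ratio 1.65 and 1.43, adjusted p = 0.00614 and 0.00059 from limma). Ccn4 had a log2 ratio of 0.40 and Ccn5 one of -1.10 (adjusted p = 0.0391 and 0.00519), and both belong to the CCN family of matrix-associated proteins. Id2, Jag1 and Myc had -1.01, -0.60 and -0.33 (adjusted p = 0.0101, 0.0159 and 0.0452). The brightest probe set of Ccnd1 did not pass (log2 ratio 0.28, adjusted p = 0.0735 from limma), although 2 of its 3 probe sets did. Id2 did not pass with no replicate block (adjusted p = 0.0691), Myc not on the signals as deposited (0.0551), and Ccn4 not after median centring (0.145).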

How the data were processed

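The authors deposited 1 linear intensity (MAS5 signal) per probe set for each of 6 Affymetrix arrays, scaled to a trimmed mean of 150. The software version is not given in the sources used here, and the study's methods describe another summary (GC-RMA), so these intensities are not the values its methods describe. No detection calls were used here. After 64 control probe sets were left out, 45037 were quantile-normalized on the log2 scale and fitted with limma 3.58.1 in R 4.3.3, with the replicate number as a block since the methods name paired tests, and a variance prior that follows the signal (residual degrees of freedom 2, prior 6.18). The Benjamini-Hochberg adjustment ran over the 45037. Probe sets were named from the platform annotation, and only the 34945 with 1 gene symbol were used (932 had several, 9160 none). The number of arrays, 3 per group, limits the precision. Every listed gene was accounted for, with signals per array for those that passed in any fit and, of the further pathway genes, those that passed were named. Members and lists were chosen with earlier results of these data known. The alternatives were no block, signals as deposited, median centring, 50 added, a signal filter, a prior without the trend, the methods' t-test, left-out replicates and other rules for several probe sets. The code was tested on simulated data.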

Additional observations from a re-analysis of the deposited data

How the results depend on the processing

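Of all probe sets 1219 rose and 1124 fell with AA, of the Wnt pathway genes 8 and 8, and of the further pathway genes 10 and 13. With 50 added these were 788 and 655 probe sets, and 3 lower Wnt pathway genes. Median centring gave 842 higher and 1291 lower probe sets, against 1148 and 1212 as deposited. With moderation without the trend 0 probe sets passed (smallest adjusted p = 0.376 from limma), although 10 and 8 Wnt pathway genes and 8 and 14 further genes had an unadjusted p under 0.05 (2587 and 2616 probe sets). The methods' t-test after Benjamini-Hochberg also gave 0 in each (unadjusted 9 and 10, 10 and 14, 2612 and 2827), and at their threshold of 0.01 gave 706 and 736 probe sets, 6 and 1 Wnt pathway genes, and 5 and 7 further genes. Averaging the probe sets of each gene gave 3 lower Wnt pathway genes and 8 lower further genes, and turned Fzd7 to 0.64, and Wnt4, Ror2, Ryk, Dact2, Lef1 and Rspo2 did not pass (adjusted p = 0.0802, 0.274, 0.377, 0.646, 0.126 and 0.135 from limma), nor did Wls, Lgr4, Apcdd1, Gsk3b, Tnks, Prickle1, Daam1, Nfatc1 and Jag1 (0.0834 to 0.982). The causes were not tested.

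When 1 replicate number or 1 array was left out, higher probe sets ranged from 556 (without replicate 2) to 1169 with the block and from 380 to 1160 with none (496 and 742 without control replicate 2 and 3, 468, 380 and 632 without AA replicate 1, 2 and 3), and lower ones from 410 (without replicate 2) to 994 with the block and from 339 to 898 with none (371 and 561, and 488, 339 and 548, in the same order). They gave higher Wnt pathway genes from 5 to 9 and lower from 1 to 9, and higher further genes from 4 to 8 and lower from 5 to 13. The fewest higher genes of the 49 were found without AA replicate 2.

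The replicate numbers were not clearly shown to pair the samples. Deviations from the group means correlated at 0.0165, 0.00369 and 0.00994 between same-numbered arrays, and at 0.182, 0.0251 and 0.0921 among probe sets above the median signal. Between arrays of different numbers the correlations ran from -0.0165 to 0.00684, and from -0.143 to 0.0513 above the median. Replicates 1 and 3 lay above these ranges and replicate 2 within them. With no replicate block 1089 and 1039 probe sets, 8 and 6 Wnt pathway genes, and 8 and 12 further genes passed. In the 49 genes this lost Fzd7, Ryk and Dact2 and added Lrp6. Of the 16 Wnt pathway genes that passed, 13 passed without the block, 16 on the signals as deposited, 14 after median centring and 11 with 50 added. Signals near the median of all probe sets limit what can be said of the 12 dimmer Wnt pathway genes.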
